A study of Homo sapiens with 6 samples.

Results

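DCAF7 (also known as WDR68 and HAN11) is a scaffold protein built of WD40 repeats, and it binds the protein kinases DYRK1A, DYRK1B, HIPK1, HIPK2 and HIPK3. Here the genes of these 6 proteins, *DCAF7* and 5 kinases, are described among the 60663 genes of a table of read counts. *DCAF7* was chosen because it was clearly lower in cells transfected with siRNAs against *LTBP2*. The kinases were taken as its known partners, with earlier results of these data known. All 6 genes were among the 16920 genes tested.

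CCD18Co is an established line of human colon fibroblasts. All 6 libraries came from CCD18Co cells transfected with siRNA by Lipofectamine 2000 and collected 48 h later: 3 with a non-target pool (siNT) and 3 with a pool against *LTBP2* (siLTBP2), which codes for a secreted binding protein of the extracellular matrix. A single pool was used against *LTBP2*, all cells were of 1 line, and the labels do not say whether replicates were separate cultures, so the p-values measure the spread between these libraries. The stranded libraries were made from total RNA without its ribosomal RNA. *LTBP2* itself was at 30.4% of its siNT level in siLTBP2. Counts on genes summed to between 44663424 and 53576899 reads in a library. The 7 fibroblast markers checked were all expressed (summed level of 9529 to 12686 CPM, that is normalized counts per 1000000, in siNT and of 9670 to 13666 CPM in siLTBP2), *VIM* making up the largest part. Of the 7, *PDGFRB* fell to 65.8% of its siNT level (edgeR adjusted p = 0.0025), and its part in the results was not tested. In contrast, 5 epithelial markers summed to at most 0.338 CPM and 4 immune markers to at most 0.444 CPM. Of the 4 endothelial markers, *TEK* made up nearly all of a summed 59.9 to 83.6 CPM, while *CDH5* had no read in siNT. Of the 4 smooth muscle markers, *ACTG2* made up nearly all of the sum, which was 39.9 to 41.9 CPM in siNT and 53.2 to 71.9 CPM in siLTBP2. The part of *ACTG2*-expressing cells in the results was not tested.

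DCAF7 carries no enzyme activity. It holds DYRK1A and DYRK1B through their N-terminal parts and brings HIPK2 and other proteins, such as the kinase MAP3K1 and the DNA repair factor ERCC1-XPF, into the same complexes. The DYRK and HIPK kinases phosphorylate serine and threonine residues after activating themselves on a tyrosine. DYRK1A and DYRK1B act on the exit from the cell cycle, on cyclin D and on NFAT transcription factors, and the HIPK kinases act on transcriptional co-repressors and on Wnt and TGF-β responses. The name DCAF7 stands for a factor associated with the ubiquitin ligase of DDB1 and CUL4.

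*DCAF7* (ENSG00000136485) lies on the plus strand of chromosome 17 of GRCh38, from 63550222 to 63594286 in GENCODE 44, and starts at 63550477 in the deposited table. Its canonical transcript has 7 exons, and the last one holds a 3′ UTR of 5094 bases. Among the 6 genes, a 7-base word, GCACCCA, occurred in the 3′ UTR of *DCAF7* (2 copies) and of *HIPK2* (2 copies). It was absent from the 3′ UTRs of *DYRK1A* (13827 bases), *DYRK1B* (365 bases), *HIPK1* (4357 bases) and *HIPK3* (3455 bases). This word was picked because earlier work on these same libraries found its carriers lower in siLTBP2, so its presence in lower genes is not independent evidence. It also occurred once in the coding sequence of *HIPK1* and once in that of *HIPK2*, and *LTBP2* held 1 copy in its 3′ UTR besides 3 in coding exons. The windows of 30 bases around it are shown, read 5′ to 3′ along the transcript from the GENCODE 44 transcripts, with the word in capitals. They let the sites of the lower genes be compared with the one in the 3′ UTR of *LTBP2*.
DCAF7 3′ UTR, copy 1, chr17:63589274-63589303, plus strand: ttcattgctttGCACCCActgttaccagaa
DCAF7 3′ UTR, copy 2, chr17:63593548-63593577, plus strand: aaagtttatagGCACCCAcctttgggacaa
HIPK2 3′ UTR, copy 1, chr7:139569163-139569192, minus strand: gcatgcccccaGCACCCAattctagccagc
HIPK2 3′ UTR, copy 2, chr7:139563354-139563383, minus strand: cctgggccaagGCACCCAggactcccagaa
HIPK2 coding sequence, copy 1, chr7:139604087-139604116, minus strand: gaccatggcagGCACCCAgcagctggcgga
HIPK1 coding sequence, copy 1, chr1:113973150-113973179, plus strand: cactcgacaggGCACCCAcaccttgccccg
LTBP2 3′ UTR, copy 1, chr14:74500043-74500072, minus strand: catgggatacaGCACCCAtctacaaagacc
The first *DCAF7* site starts at base 113 of the 3′ UTR, and the second at base 4387, which leaves 701 bases to its end. Both lie in exon 7 of 7, and both 3′ UTR sites of *HIPK2* lie in exon 15 of 15. The windows were aligned on the word, so every shared run includes its 7 bases. No *DCAF7* window shared a run of more than 8 bases with any of the 4 *LTBP2* windows, 3 of them coding. No *HIPK2* window shared a run of more than 9. With the 3′ UTR window of *LTBP2*, both *DCAF7* windows shared only the word, and the 3′ UTR windows of *HIPK2* shared 9 and 7 bases.

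In siNT, *DCAF7* was at 229.8, 185 and 205 CPM in replicates 1 to 3. In siLTBP2 it was at 58.3, 66.1 and 63.1 CPM. Every siLTBP2 library was far below every siNT library, and the siLTBP2 libraries lay close together. The mean went from 207 ± 22.4 to 62.5 ± 3.95 CPM (SD, n = 3), so 30.3% of the siNT level remained. The log2 fold change was -1.72 with a standard error of 0.10. Since *DCAF7* was chosen for this fall, it is given as a description, without a test. Of all genes tested, 18.3% were lower without overlap of the groups, and 1.27% passed, on the lower side, the study's thresholds (a fold change above 2 at an adjusted p below 0.01). In bulk RNA, fewer cells that express a gene and less of its RNA per cell cannot be told apart. The raw counts behind these levels were 9132 to 11063 reads in siNT and 2541 to 3326 reads in siLTBP2.

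The nearest tested genes on either side of *DCAF7* did not pass the test used for the kinases, edgeR's quasi-likelihood test. *TACO1*, which begins 6596 bases after *DCAF7* and codes for a translational activator of mitochondrial cytochrome c oxidase, differed by 0.03 on the log2 scale (standard error 0.09, edgeR adjusted p = 0.88). *TANC2*, 122519 bases before it, differed by 0.04 (standard error 0.09, edgeR adjusted p = 0.80). In GENCODE 44 a small nuclear RNA gene inside *DCAF7* on the other strand, *RNU6-288P*, had a count of 0 in every library. A coding gene on the same strand, ENSG00000288894, shares 1169 exon bases with *DCAF7* in GENCODE 44 and has no counts in the data used here.

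**Figure D1:**
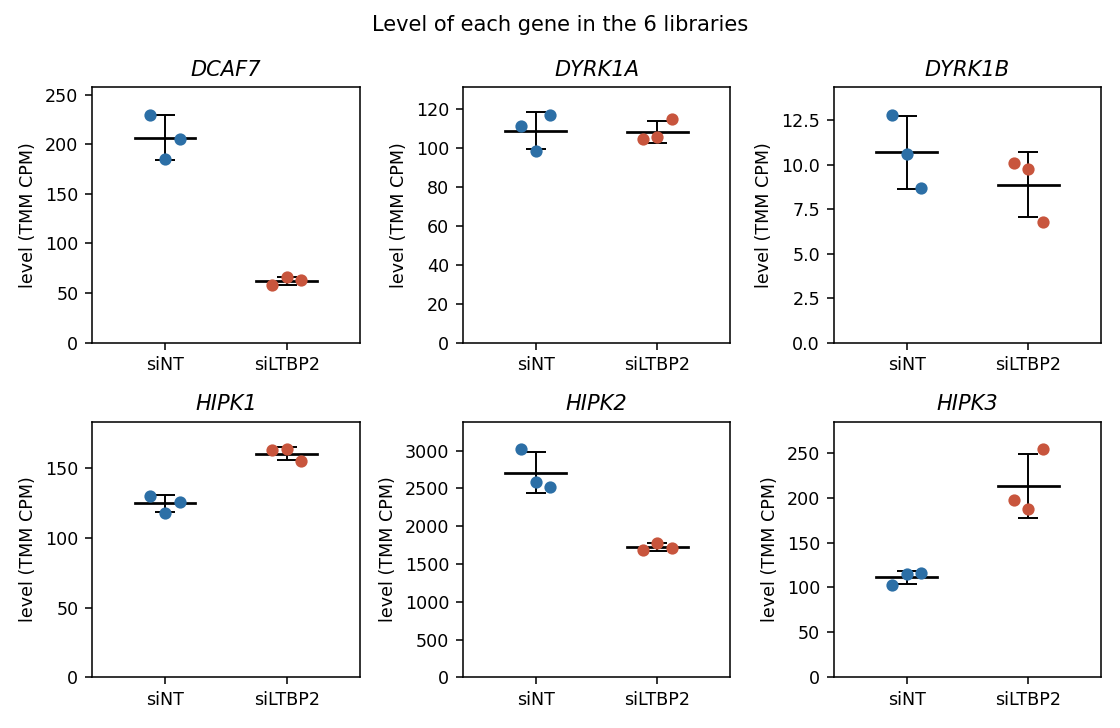
Level of each gene in TMM-normalized CPM (vertical axes, each from 0) in the siNT (blue) and siLTBP2 (red) libraries; points are libraries, the long bar is the mean and the error bar the SD of 3. *DCAF7* and *HIPK2* were lower in all 3 siLTBP2 libraries, *HIPK1* and *HIPK3* higher in all 3, and the groups overlapped for *DYRK1A* and *DYRK1B*.

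Among the 5 kinases, *HIPK2* was lower in siLTBP2, *HIPK1* and *HIPK3* were higher, and *DYRK1A* and *DYRK1B* did not pass the test. A gene is called changed here at an adjusted p below 0.05 in edgeR's quasi-likelihood test, with p-values adjusted by Benjamini-Hochberg over all 16920 genes. By this rule 19.3% of all genes changed, 9.76% being higher and 9.51% lower. The groups did not overlap for 4 of the 6 genes, *DCAF7* among them by choice, against 37% of all genes tested. *HIPK1* and *HIPK3* were higher without overlap, as were 18.7% of all genes. None of the 5 kinases passed the thresholds of the study, which 2.57% of all genes did.

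*DYRK1A*, the dosage-sensitive kinase of the Down syndrome region of chromosome 21, was at 111, 98.4 and 117 CPM in siNT and at 105, 106 and 115 CPM in siLTBP2. All siLTBP2 libraries lay within the range of the siNT libraries. The log2 fold change was -0.01 (standard error 0.09, edgeR adjusted p = 0.97), and its 95% confidence interval ran from -0.21 to 0.19. With 1 library left out it lay between -0.07 and 0.05.

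*DYRK1B*, its close relative, which is best known from muscle and from quiescent cells, was the least abundant of the 6 genes in CPM. It was at 12.8, 10.6 and 8.68 CPM in siNT and at 10.1, 9.75 and 6.76 CPM in siLTBP2, from 356 to 592 reads. The groups overlapped. The log2 fold change was -0.27 (standard error 0.18, edgeR adjusted p = 0.35, 95% confidence interval from -0.68 to 0.14). With the replicate number as a block, the log2 fold change was -0.27 and the adjusted p was 0.042, so the call depends on whether same-numbered libraries are compared.

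*HIPK2*, the best studied HIPK, was at 3018, 2582 and 2523 CPM in siNT and at 1681, 1777 and 1712 CPM in siLTBP2. It ranked 18th by CPM among the genes tested in siNT, and the siLTBP2 libraries all lay under the lowest siNT library. The mean fell from 2708 ± 270.4 to 1723 ± 48.9 CPM (SD, n = 3), to 63.7% of the siNT level. The log2 fold change was -0.65 (standard error 0.11, edgeR adjusted p = 0.0024). It lay between -0.70 and -0.57 with 1 library left out, and the call was kept each time. *TBXAS1*, the thromboxane synthase gene, overlaps *HIPK2* on the other strand with 0 shared exon bases in GENCODE 44. It was lower as well, from 3187 to 3767 reads in siNT to 1415 to 1760 reads in siLTBP2 (log2 fold change -1.11, standard error 0.12, edgeR adjusted p = 0.00023). Whether counting used the strand is not given in the sources used here, and the part of reads from the other strand was not tested.

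*HIPK1*, which acts on DAXX, was at 130.0, 118 and 125 CPM in siNT and at 163, 163 and 155 CPM in siLTBP2. Every siLTBP2 library was above every siNT library. The mean rose from 125 ± 6.05 to 160.3 ± 4.72 CPM (SD, n = 3), with a log2 fold change of 0.36 (standard error 0.08, edgeR adjusted p = 0.0098). Without siLTBP2 replicate 2 the log2 fold change was 0.35 and the edgeR adjusted p was 0.054, so the call was lost. The antisense gene *HIPK1-AS1*, which shares 172 exon bases with *HIPK1*, had at most 17 reads in a library.

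*HIPK3*, a kinase linked to FAS signalling and to steroid-responsive transcription, had the largest rise of the 5 kinases. It was at 103, 115 and 116 CPM in siNT and at 197, 188 and 254 CPM in siLTBP2. The groups did not overlap, and siLTBP2 replicate 3 was the highest. The mean rose from 111 ± 7.17 to 213 ± 35.8 CPM (SD, n = 3), a 1.91-fold difference, with a log2 fold change of 0.94 (standard error 0.12, edgeR adjusted p = 0.00048). It lay between 0.79 and 1.02 with 1 library left out, and the call was kept each time. An exon of *HIPK3* is known to form an abundant circular RNA, and libraries of total RNA keep such molecules, so counts per gene do not separate them from the mRNA. The nearest tested genes had few reads, and both were higher. *KIAA1549L*, 19085 bases after *HIPK3*, had 20 to 31 reads in siNT and 46 to 64 in siLTBP2 (log2 fold change 1.24, standard error 0.31, edgeR adjusted p = 0.018). *CSTF3-DT*, 65074 bases before it, had 2 to 11 reads in siNT and 16 to 17 in siLTBP2 (log2 fold change 1.52, standard error 0.48, edgeR adjusted p = 0.0497). The nearest tested genes of *HIPK1* (*OLFML3*, log2 fold change 0.35, and *DCLRE1B*, 0.31) and of *HIPK2* (*PARP12*, 0.28, and *LUC7L2*, -0.12) did not pass the test. Neither did those of *DYRK1A* and *DYRK1B*.

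**Figure D2:**
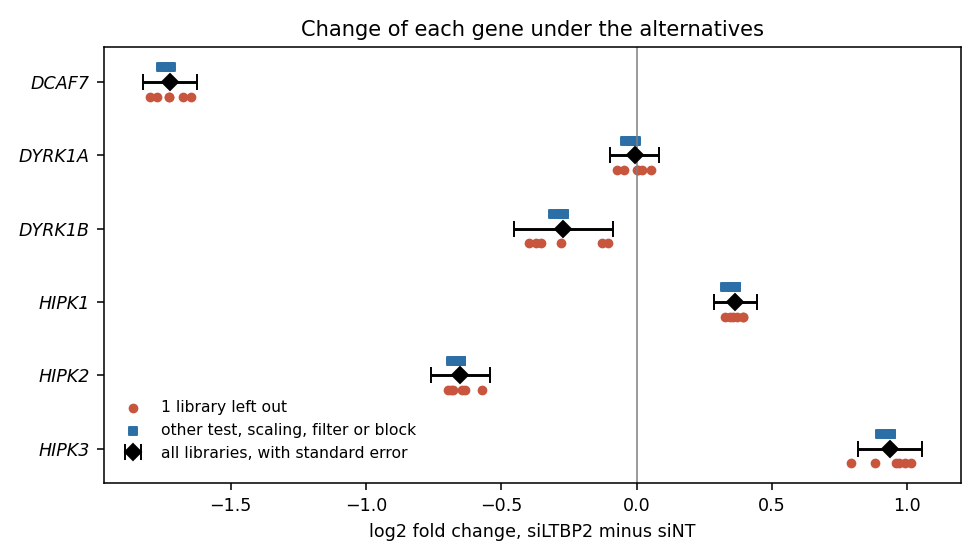
Log2 fold change of siLTBP2 against siNT (horizontal axis) for each gene; diamonds show all 6 libraries with the standard error, red points the values with 1 library left out, and blue squares the values under another test, scaling, filter or the replicate block. The values of *DYRK1A* fall on both sides of 0, while *DCAF7*, *HIPK1*, *HIPK2* and *HIPK3* keep their direction throughout.

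Levels of different genes were compared as CPM per kilobase of merged exon. In siNT, *HIPK2* was highest at 173 ± 17.3 CPM per kilobase (SD, n = 3). *DCAF7* followed at 16.2 ± 1.76, *HIPK3* at 13.6 ± 0.878, *HIPK1* at 13.6 ± 0.662, *DYRK1A* at 4.07 ± 0.359 and *DYRK1B* at 3.35 ± 0.646 CPM per kilobase (SD, n = 3). The siNT values of *HIPK3* and *HIPK1* overlapped, as did those of *DYRK1A* and *DYRK1B*. The lowest siNT value of *DCAF7* (14.5) was above the highest of *HIPK1* and *HIPK3* (both 14.2). In siLTBP2, *DCAF7* was at 4.90 ± 0.309 CPM per kilobase (SD, n = 3), above *DYRK1A* at 4.05 ± 0.213 in every library, and the order of the other genes was kept, with *HIPK3* (26.1 ± 4.39) now above *HIPK1* (17.5 ± 0.516) in every library (SD, n = 3). Among 12484 coding genes in siNT, 98.9% lay below *HIPK2*, 79.1% below *DCAF7* and 36.6% below *DYRK1B*. With the length of the canonical transcript in place of merged exons, *DCAF7* was at 32.7 CPM per kilobase in siNT, and its place between *HIPK2* and the others was the same.

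Relative to its kinases, *DCAF7* went from 3.98 ± 0.333 times the level of *DYRK1A* in siNT to 1.21 ± 0.0876 times in siLTBP2, and from 1.20 ± 0.206 times that of *HIPK3* to 0.191 ± 0.0332 times, per kilobase (SD, n = 3). With canonical transcript lengths the same ratios were 5.11 and 1.55 to *DYRK1A* and 2.25 and 0.36 to *HIPK3*, so their size depends on the length used, while the direction did not. They rest on the values that chose *DCAF7* and carry no test. Among the kinases alone, *HIPK2* made up 83.3% ± 1.27 of the summed level of the 5 in siNT and 68.6% ± 1.79 in siLTBP2 (SD, n = 3). The share was between 82.2% and 84.7% in siNT and between 66.8% and 70.4% in siLTBP2, without overlap. The ratio of *HIPK2* to *HIPK3* was 12.8 ± 2.17 in siNT and 4.31 ± 0.723 in siLTBP2, and the summed level of the 5 kinases was 208 ± 17.6 and 161 ± 3.80 CPM per kilobase (SD, n = 3). The 6 measures tested, which include the *HIPK2* share with canonical lengths, were built from the same kinase levels and are not independent results. In each the groups did not overlap, and the exact permutation test (two-sided) gave p = 0.1, before and after adjustment over the 6. This is the smallest p that 3 libraries against 3 allow.

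**Figure D3:**
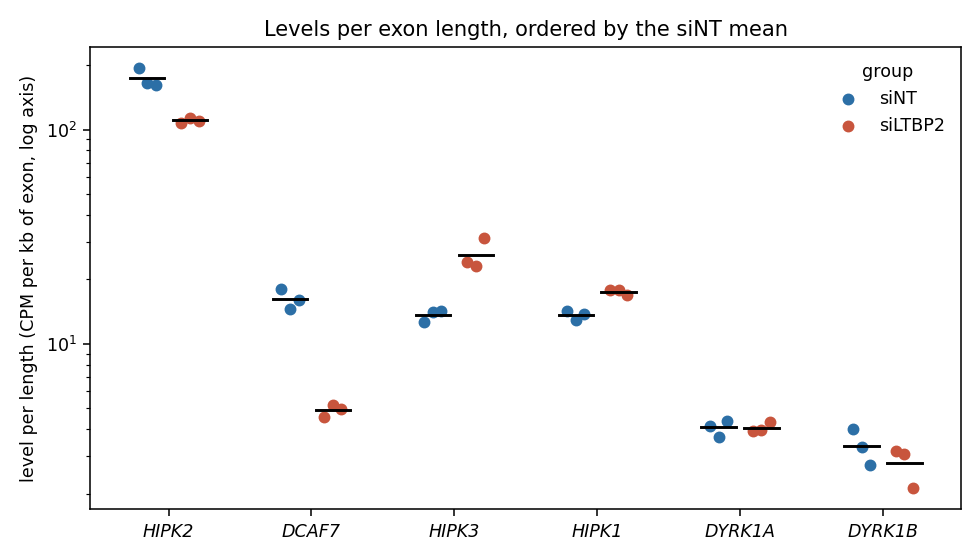
Level per exon length (CPM per kilobase of merged exon, log axis) of the 6 genes, ordered by the siNT mean; points are libraries of siNT (blue) and siLTBP2 (red), and bars are means of 3. *HIPK2* is highest in both groups, and *DCAF7* moves from the second place in siNT to the fourth in siLTBP2, still above *DYRK1A* in every library.

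Beyond the 6 genes, 103 genes of 7 lists around DCAF7, DYRK and HIPK were examined, and 102 were tested. Of these, 15 were higher and 13 lower in siLTBP2 (27.5%, against 19.3% of all genes tested), with a median log2 fold change of 0.04 against -0.01 over all genes tested. With the replicate number as a block, 28 were higher and 26 lower (52.9%, against 36.2% of all genes tested under the same block), and no gene of the lists lost its call. The per-list counts in the following paragraphs are without the block unless it is named. The lists were chosen with results of these data known, and nothing particular to them is read from these counts.

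Among the relatives of the kinases, 8 of 9 genes were tested. Of the 8, 2 rose and 1 fell (37.5%, against 19.3% of all genes tested), with a median log2 fold change of 0.03. *DYRK2*, a kinase that is also the scaffold of a ubiquitin ligase, was at 19.8, 20.1 and 22.1 CPM in siNT and at 44.5, 42.6 and 57.3 CPM in siLTBP2. Every siLTBP2 library was above every siNT library, and the log2 fold change was 1.22 (standard error 0.12, edgeR adjusted p = 0.00015), past the thresholds of the study. *DYRK3*, which governs the dissolution of stress granules, rose from 45.1 ± 6.71 to 65.8 ± 6.59 CPM (SD, n = 3), with a log2 fold change of 0.55 (standard error 0.12, edgeR adjusted p = 0.010). *CLK3*, a kinase of splicing factors, fell from 41.3 ± 0.287 to 32.8 ± 2.19 CPM (SD, n = 3), with a log2 fold change of -0.33 (standard error 0.09, edgeR adjusted p = 0.023). The call of *CLK3* was lost with any library left out except siLTBP2 replicate 1, at edgeR adjusted p values of up to 0.073. *DYRK4* (log2 fold change -0.04), *CLK1* (0.08), *CLK2* (0.09), *CLK4* (-0.10) and *PRPF4B* (-0.02) did not pass the test. The replicate block changed no call of these relatives. *HIPK4*, known from testis, had 7 to 14 reads per library and was not tested.

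Of 16 other binding partners of DCAF7, all tested, 2 rose and 2 fell (25%, against 19.3% of all genes tested). The median log2 fold change was 0.03. *DIAPH1*, a formin that elongates actin filaments, was at 222, 189 and 213 CPM in siNT and at 290, 276 and 269.9 CPM in siLTBP2, without overlap (log2 fold change 0.42, standard error 0.09, edgeR adjusted p = 0.0088). *PCGF5*, a Polycomb subunit found with DCAF7 and AUTS2, had a log2 fold change of 0.47 (edgeR adjusted p = 0.020), and was no longer called when siNT replicate 1 (0.38) or 2 (0.51) or siLTBP2 replicate 2 (0.50) was left out. *CSNK2A1*, the catalytic subunit of casein kinase 2, fell from 192 ± 10.2 to 149 ± 7.44 CPM (SD, n = 3), with a log2 fold change of -0.37 (edgeR adjusted p = 0.012). *FBRS*, another Polycomb partner, had a log2 fold change of -0.34 (edgeR adjusted p = 0.048) and lost its call with any library left out except siNT replicate 2. The kinase gene *MAP3K1* (log2 fold change 0.14), the repair genes *ERCC1* (0.18) and *ERCC4* (0.27), the insulin receptor substrate *IRS1* (-0.25), *AUTS2* (-0.26) and *PCGF3* (-0.32) did not pass the test. Neither did *RNF2* (0.31), *RING1* (-0.07), *RYBP* (-0.09), *CSNK2B* (0.14), *FBRSL1* (-0.37) and *ZNF703* (0.17). With the replicate block 5 were higher and 5 lower (62.5%, against 36.2% of all genes tested). The 6 that gained a call were *ERCC1*, *ERCC4* and *RNF2* on the higher side and *IRS1*, *PCGF3* and *FBRSL1* on the lower (blocked edgeR adjusted p between 0.00067 and 0.049).

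The CUL4-DDB1 ligase list held 24 genes, and 2 rose and 3 fell (20.8%, against 19.3% of all genes tested). The median log2 fold change was -0.02. *CUL4B*, a cullin of the ligase, rose from 122 ± 3.53 to 159 ± 2.37 CPM (SD, n = 3), with a log2 fold change of 0.38 (standard error 0.08, edgeR adjusted p = 0.0060). *DCAF10*, another substrate receptor, fell from 60.9 ± 0.964 to 44.1 ± 1.92 CPM (SD, n = 3), with a log2 fold change of -0.47 (standard error 0.08, edgeR adjusted p = 0.0028). The receptors *DCAF16* (log2 fold change 0.47) and *DCAF11* (-0.38) and the core subunit *DDA1* (-0.44) also changed. With the replicate block 3 genes of this list were higher and 6 lower (37.5%, against 36.2% of all genes tested). *DCAF16* was called in neither fit that left out siNT replicate 1 (0.39) or 2 (0.44). *DCAF11* lost its call when siNT replicate 2 (-0.36) or 3 (-0.38) or siLTBP2 replicate 1 (-0.36) was left out, and *DDA1* when siNT replicate 1 was (-0.36).

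Of 16 substrates and partners of DYRK1A and DYRK1B, 3 rose and 2 fell (31.25%, against 19.3% of all genes tested). The median log2 fold change was 0.20, against -0.01 over all genes tested. Under the replicate block 8 were higher and 4 lower (75%, against 36.2% of all genes tested). *FAM53C*, whose protein binds DYRK1A, was at 157, 144 and 112 CPM in siNT and at 85.9, 93.4 and 72.0 CPM in siLTBP2. The groups did not overlap (log2 fold change -0.72, standard error 0.13, edgeR adjusted p = 0.0044). *FAM117B*, whose protein has also been found with DYRK1A, was at 85.9, 79.4 and 85.4 CPM in siNT and at 58.3, 61.4 and 48.8 CPM in siLTBP2 (log2 fold change -0.57, standard error 0.10, edgeR adjusted p = 0.0028), again without overlap. *SPRED1* (log2 fold change 0.41) and *SPRED2* (0.43), inhibitors of RAS signalling, rose, as did *CCND1* (0.45, edgeR adjusted p = 0.035), the cyclin D1 gene. *CCND1* was no longer called when siNT replicate 2 (0.32) or 3 (0.48) or siLTBP2 replicate 1 (0.45) or 2 (0.42) was left out.

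In the calcineurin and NFAT list of 11 genes, 2 rose and 1 fell (27.3%, against 19.3% of all genes tested). The median log2 fold change was 0.02. Under the replicate block 3 were higher and 2 lower (45.5%, against 36.2% of all genes tested). *RCAN2*, an inhibitor of calcineurin, fell from 62.3 ± 6.46 to 33.4 ± 5.85 CPM (SD, n = 3), with a log2 fold change of -0.90 (standard error 0.13, edgeR adjusted p = 0.0011). The calcineurin subunit *PPP3CA* (log2 fold change 0.40, edgeR adjusted p = 0.0068) and the transcription factor *NFATC3* (0.48, edgeR adjusted p = 0.0058) rose. In the DREAM complex, which DYRK1A helps to assemble, 1 of 12 genes changed (8.33%, against 19.3% of all genes tested). The median log2 fold change was 0.10. The block gave 2 higher and 3 lower (41.7%, against 36.2% of all genes tested). *E2F5* rose from 4.08 ± 0.565 to 8.18 ± 1.36 CPM (SD, n = 3), with a log2 fold change of 1.00 (standard error 0.17, edgeR adjusted p = 0.0023).

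Of 15 substrates, partners and ubiquitin ligases of the HIPK kinases, 3 rose and 4 fell (46.7%, against 19.3% of all genes tested). The median log2 fold change was 0.10. With the replicate block 5 were higher and 5 lower (66.7%, against 36.2% of all genes tested). *NLK*, a kinase that acts with HIPK2, was at 79.4, 67.5 and 66.2 CPM in siNT and at 38.8, 32.6 and 38.2 CPM in siLTBP2. The groups were far apart (log2 fold change -0.96, standard error 0.11, edgeR adjusted p = 0.00023). *CTBP1*, a co-repressor that HIPK2 phosphorylates, fell from 201 ± 12.9 to 121 ± 11.6 CPM (SD, n = 3), with a log2 fold change of -0.74 (standard error 0.10, edgeR adjusted p = 0.00056). *HMGA1*, a chromatin protein gene, rose (0.70, edgeR adjusted p = 0.0037), and *DAXX* had a log2 fold change of 0.31 (edgeR adjusted p = 0.025) but lost its call with any library left out except siLTBP2 replicate 3. *SIAH1*, a ubiquitin ligase of HIPK2, also fell, with a log2 fold change of -0.53 (edgeR adjusted p = 0.020), and it is named after its values were seen.

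**Figure D4:**
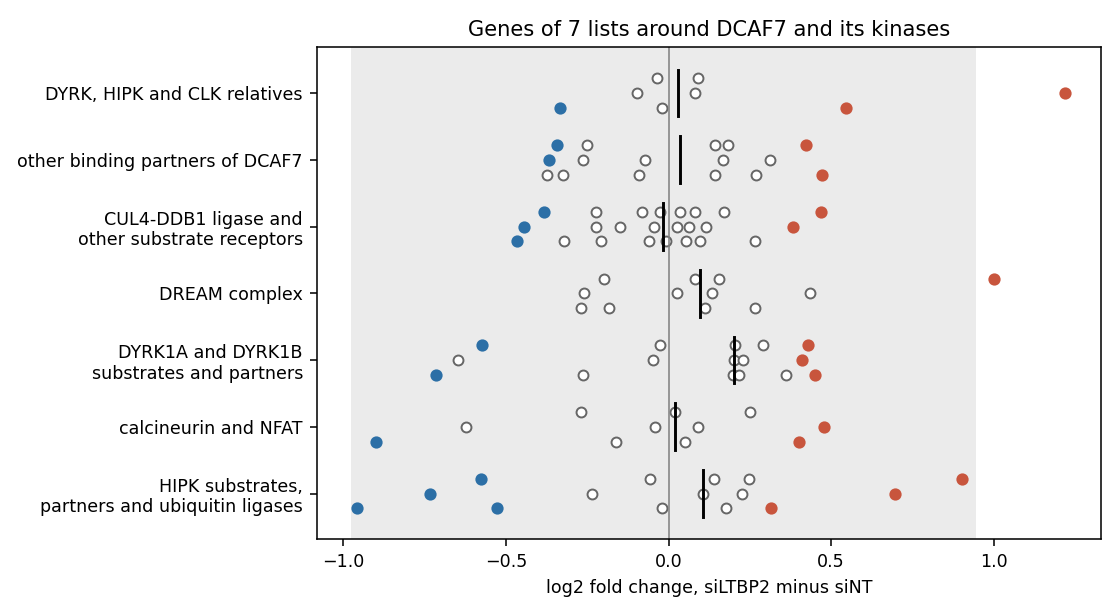
Log2 fold change of siLTBP2 against siNT (horizontal axis) for each tested gene of 7 lists; red points rose and blue points fell at an adjusted p below 0.05, open points did not pass, black bars are medians, and the grey band holds the middle 95% of all genes tested. Most genes lie inside the band, and the medians lie between -0.02 and 0.20.

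The word shown above in the 3′ UTRs of *DCAF7* and *HIPK2* was counted in the 3′ UTRs (of at least 50 bases, canonical transcripts, transcript strand) of 12303 tested coding genes. It was present in 11.8% of them, and 1.55% held 2 or more copies, as *DCAF7* and *HIPK2* do. Long 3′ UTRs held it more often: of 2777 genes with at least 3000 bases, 25.3% held it and 4.65% held 2 or more copies. By the adjusted p below 0.05, 36.6% of the genes with 2 or more copies were lower in siLTBP2 and 7.33% were higher. Of those with 1 copy, 26.5% were lower and 6.81% higher, and of those with none, 9.35% were lower and 12.8% higher. Among the 2777 genes of long 3′ UTR, which include *DCAF7* and *HIPK2*, the gap was smaller: 28.7% of those with 2 or more copies were lower and 10.1% higher, against 10.2% lower and 17.7% higher of those with none. The word was picked because its carriers were lower in these same libraries. All these shares, also those within long 3′ UTRs, are therefore a description and not independent evidence. Of the 7 lists, 14 genes carried the word, of which 3 fell (*DDA1* and *SIAH1* among them), 1 rose (*SPRED1*) and 10 did not pass the test. Of the 13 list genes that fell, those without it in the 3′ UTR included *NLK*, *CTBP1*, *RCAN2*, *FAM53C* and *FAM117B*. *CTBP1* held 1 copy in its coding sequence.

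**Figure D5:**
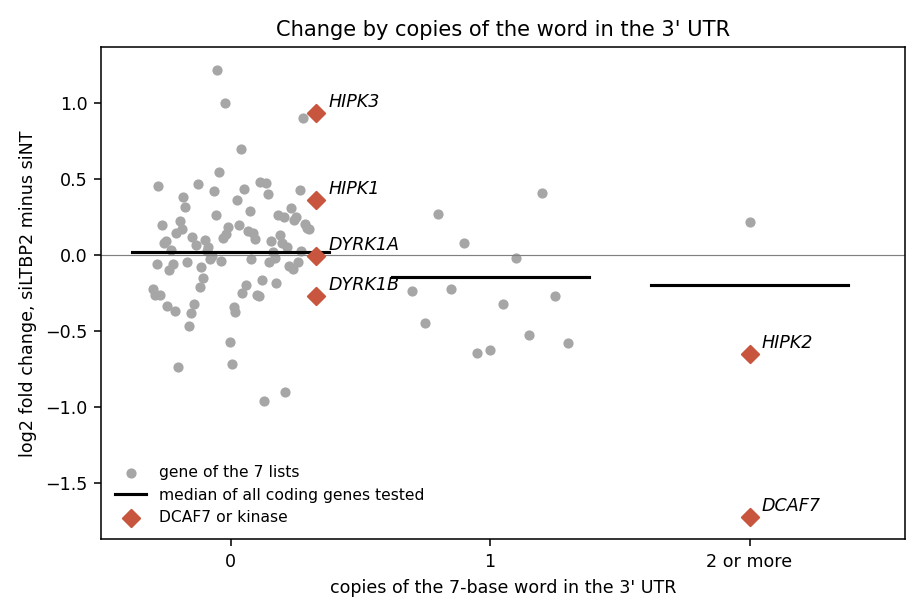
Log2 fold change of siLTBP2 against siNT (vertical axis) by the number of copies of the 7-base word in the 3′ UTR (horizontal axis); diamonds are *DCAF7* and the kinases, grey points the genes of the 7 lists, spread sideways within a class, and black bars the medians of all coding genes tested. *DCAF7* and *HIPK2*, at 2 copies, lie at -1.72 and -0.65, below the median of -0.20 for that class. *DCAF7* was chosen for its fall and the word for its lower carriers in this contrast, so these places are a description.

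The genes whose pattern over the 6 libraries was most like that of *DCAF7* were *ARSB*, *DMAC2*, *IGFBP3*, *RDH10* and *FAM234A*. Likeness was the root mean square distance between log2(CPM + 0.5) values centred on each gene's mean, over 9396 genes with a mean of at least 10 CPM, and it ran from 0.084 (*ARSB*) to 0.14 (*FAM234A*). *ARSB*, a lysosomal sulfatase of glycosaminoglycans, went from 52.9 ± 1.78 to 16.4 ± 1.37 CPM (SD, n = 3). *IGFBP3*, a binding protein of insulin-like growth factors, went from 215 ± 22.1 to 69.1 ± 3.87 CPM, and *RDH10*, an enzyme of retinoic acid synthesis, from 203 ± 26.4 to 61.2 ± 8.34 CPM (SD, n = 3). The 3′ UTR of *ARSB* held 2 copies of the word, those of *DMAC2*, *IGFBP3* and *RDH10* held 1 each, and that of *FAM234A* held none. These 5 genes were picked for values of the same contrast, so their fall is a description. The word was picked from that contrast too, so its copies in these genes are not independent evidence. Of the tested coding genes 11.8% held it in the 3′ UTR, as did 405 of the 1419 that were lower.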

How the data were processed

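RNA sequencing counts of 6 CCD18Co libraries were used, 3 siNT and 3 siLTBP2, grouped by the treatment given in the labels. Read pairs were aligned to GRCh38 by the authors with STAR (2.7.1a in the submitters' processing notes). The deposited values are raw counts, 1 column per library, made with HTSeq-count (0.11.2) and neither normalized nor pooled. The sources used here name neither the annotation release nor the strand setting. Of the identifiers in the table, 60462 are in GENCODE 44, and 95.7% of these have the same start there. Gene models, lengths and 3′ UTRs were taken from GENCODE 44, and 27067 genes had a count of 0 in every library.

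Counts were tested with edgeR 4.0.16 in R 4.3.3 by its quasi-likelihood test (glmQLFit, glmQLFTest) after filterByExpr and TMM scaling, two-sided, with Benjamini-Hochberg adjustment over all genes tested. Alternatives were edgeR's likelihood ratio test, which the study used, DESeq2 1.42.0, 3 other scalings, 2 other filters, the replicate block, the thresholds of the study and leaving out each library in turn. Standard errors were derived from each log2 fold change and its F statistic (ratio to the root of F). CPM used TMM library sizes. The depth of each library limits genes of few counts, such as *HIPK4*. Libraries of one group differed by more than sampling noise (chi-square of 28.0 to 55.0 for each degree of freedom). The main edgeR fit was first tested on simulated data.

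The members, lists and the 7-base word were chosen with earlier results of these data known. Named genes were the 6 members, up to 3 changed genes in each direction per list with a mean of at least 1 CPM (any gene in the first 2 lists), the 5 genes most like *DCAF7*, and neighbouring or overlapping genes. Some of these are not reported here. Deviations from the group means of same-numbered libraries correlated at 0.44, 0.19 and 0.57 on log2(CPM + 0.5), and at 0.30, 0.08 and 0.43 on edgeR's log2 CPM, so the replicate pairing by number passed 0.1 throughout on the first scale and not on the second. Nothing in the labels says what a number shares, and blocked values are given for the members and as counts for the lists.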

Additional observations from a re-analysis of the deposited data

How the results depend on the processing

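The change of *DCAF7* stayed between -1.80 and -1.65 on the log2 scale with 1 library left out, and *HIPK2*, *HIPK3* and *LTBP2* kept their calls under every other test, scaling and filter run and with any 1 library left out. *HIPK1* lay between 0.33 and 0.39 with 1 library left out and lost its call once. *DYRK1A* turned sign in 4 of 6 such fits (0.0032, 0.051, 0.021 and 0.0069), with a range from -0.074 to 0.051, around a value near 0. At the thresholds of the study *HIPK1* (0.36), *HIPK2* (-0.65) and *HIPK3* (0.94) were not called, since their fold changes were under 2.

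With the replicate block *DYRK1B* passed (log2 fold change -0.27), and 54 genes of the lists changed in place of 28, with 28 higher in place of 15 and 26 lower in place of 13. Over all genes tested the block called 36.2% in place of 19.3%. No call of another kinase changed under the block. Blocked log2 fold changes were -0.0040 (*DYRK1A*), 0.37 (*HIPK1*), -0.65 (*HIPK2*) and 0.93 (*HIPK3*), and that of *DCAF7*, which carries no test, was -1.72. The cause of the larger number of calls was not tested. At the thresholds of the study, 2.57% of all genes tested were called in edgeR's quasi-likelihood test. Of the 102 tested list genes, 2 were called, 2 higher and 0 lower, in this test, edgeR's likelihood ratio test and DESeq2 alike. At an unadjusted p below 0.05, 25, 23 and 21 were lower and 22, 21 and 20 higher in these tests, while 15.98%, 15.96% and 15.02% of all genes were lower and 16.3%, 16.3% and 15.6% higher. With 1 library left out, 22 to 32 list genes changed. The share of all genes called was not taken for these fits, so nothing is read from this range. Of 27 named list genes under the alternatives other than the stricter thresholds, 350 fits kept the call, 28 lost it and none turned sign.

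With canonical transcript lengths the siNT levels were 32.7 (*DCAF7*), 6.40 (*DYRK1A*), 4.28 (*DYRK1B*), 15.2 (*HIPK1*) and 14.6 (*HIPK3*) CPM per kilobase, since the lengths are shorter. Depth limits genes of few reads, such as *HIPK4* and *HIPK1-AS1*.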
